A study of Mus musculus with 13 samples.

Results

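Potassium channel genes were taken as the array's non-control probes whose gene symbol begins with Kcn, with the inward rectifier gene Kcnj8 left out. The symbol came from the probe's RefSeq accession or, failing that, from its description. The rule gave 97 of the 41174 different probes, and these stand for 77 genes among the 33639 genes or unnamed transcripts that the array's probes represent. Of the 77 genes, 75 were well above background in the sample channel on at least 3 of 13 arrays and were tested. Kcnq5, a pore subunit of the neuronal M current, was well above background on at most 2 arrays. Kcnv2, a silent subunit known from photoreceptors, was well above background on 0 arrays. Neither was tested.

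Potassium channels let potassium ions leave or enter the cell along their gradient and so set the resting potential and the shape of electrical signals. Pore subunits are grouped as voltage-gated channels, calcium- or sodium-activated channels, inward rectifiers and tandem-pore (K2P) leak channels, and auxiliary subunits change how the pores open, close or reach the membrane. In retina, voltage-gated and calcium-activated channels shape neuronal firing, inward rectifiers of Mueller glia and astrocytes carry potassium away from neurons, and channels of vessel cells take part in the control of vessel tone.

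RNA from mouse retina was hybridised to 13 Agilent gene expression arrays, with 6 samples of endothelial tip cells, 4 of stalk cells and 3 of nonvascular retina as control. A tip cell sits at the front of a vessel sprout and extends filopodia, and the stalk is formed by the cells behind it. The labels give no genotype, treatment, strain or age, no way in which the cells were isolated, and no link from sample to animal, so p-values measure only the spread between these samples, which may be technical. Each array carried its sample in Cy5 and Universal Mouse Reference RNA in Cy3, with no dye swap, so a dye effect of a probe is part of its level and drops out of a difference between groups. Levels are log2 ratios of sample over reference; they describe 1 gene across arrays and are not compared between genes. In bulk samples, fewer cells of a type and less RNA per cell cannot be told apart.

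The series as a whole sets the scale for these genes. All 10 endothelial markers were measured in every group, and their mean level per array was 0.43 to 0.74 in nonvascular retina, 2.74 to 3.03 in tip and 3.14 to 3.32 in stalk. The mean of 11 pericyte and smooth muscle markers was −0.91 to −0.80 in nonvascular retina, 0.52 to 0.77 in tip and 1.16 to 1.39 in stalk. The mean of 9 ganglion cell markers was 2.20 to 2.46 in nonvascular retina, −0.48 to 0.40 in stalk and 0.24 to 0.54 in tip. The mean of 7 astrocyte markers was 1.79 on nonvascular array 3 but 0.51 and 0.56 on nonvascular arrays 1 and 2, and 1.92 to 2.27 in stalk and tip. The mean of 7 Mueller glia markers was 1.78 on nonvascular array 3, 1.18 and 1.04 on the other nonvascular arrays, 1.68 to 1.88 in stalk and 1.50 to 1.79 in tip. Stalk arrays were scanned before tip arrays and nonvascular arrays after 5 of the 6 tip arrays, and an effect of scan order cannot be told apart from one of group. By array, the red signal had a median above background of 98.1 to 141 for stalk, 105 to 292 for tip and 166 to 282 for nonvascular retina.

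Between tip and stalk samples, 2 of the 75 potassium channel genes were called at adjusted p under 0.05. Kcne3, an auxiliary subunit that holds Kcnq1 channels open in epithelia, was higher in tip, and Kcnab1, a cytoplasmic beta subunit that speeds inactivation of Kv1 channels, was lower. Both are auxiliary subunits, and none of the 59 tested pore genes passed the test. They were also the 2 members whose tip and stalk arrays did not overlap, with 5.48% of all features apart in the same way. The 2 called members are 2.67% of 75, against 2.78% called among all 32107 features tested (1.47% higher and 1.31% lower). The median difference over the members was −0.01, and over all features it was 0.00277. Before adjustment, 9 members (12%) had p under 0.05, beside 18% of all features. Of all called features 52.7% were higher in tip, a share of 34.2% with array brightness in the model, 31.2% from the red channel by itself and 19.4% under median centring. Between the same groups 7 of 11 pericyte and smooth muscle markers and 2 of 10 endothelial markers were lower in tip, and 1 of 9 ganglion cell markers was higher. Their part in the channel gene differences was not tested.

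Kcne3 stood at a different level in each of the 3 groups. Its level was 0.20, 0.06 and 0.40 on the nonvascular arrays, 1.36, 1.98, 1.60 and 1.93 on the stalk arrays, and 2.97, 3.07, 2.91, 3.11, 3.33 and 3.15 on the tip arrays. No array of one group overlapped another group, with nonvascular lowest and tip highest. Tip exceeded stalk by 1.37 ± 0.12 (SE) on the log2 scale, a 2.59-fold difference (limma, Benjamini-Hochberg adjusted p = 9.44e-05). Tip exceeded nonvascular retina by 2.87 ± 0.14 (7.31-fold, adjusted p = 1.51e-08), and stalk exceeded it by 1.50 ± 0.15 (2.82-fold, adjusted p = 5.16e-06). A further probe of Kcne3 gave differences of 1.46 ± 0.13 for tip over stalk, 2.23 ± 0.15 for tip over nonvascular and 0.77 ± 0.16 for stalk over nonvascular, each called. Both comparisons with nonvascular retina share its 3 samples. The tip over stalk difference was called under all 25 alternatives, some of which repeat each other. It was between 0.81 and 2.06 in size, with adjusted p up to 0.0494 in the deposited ratios.

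**Figure D1:**
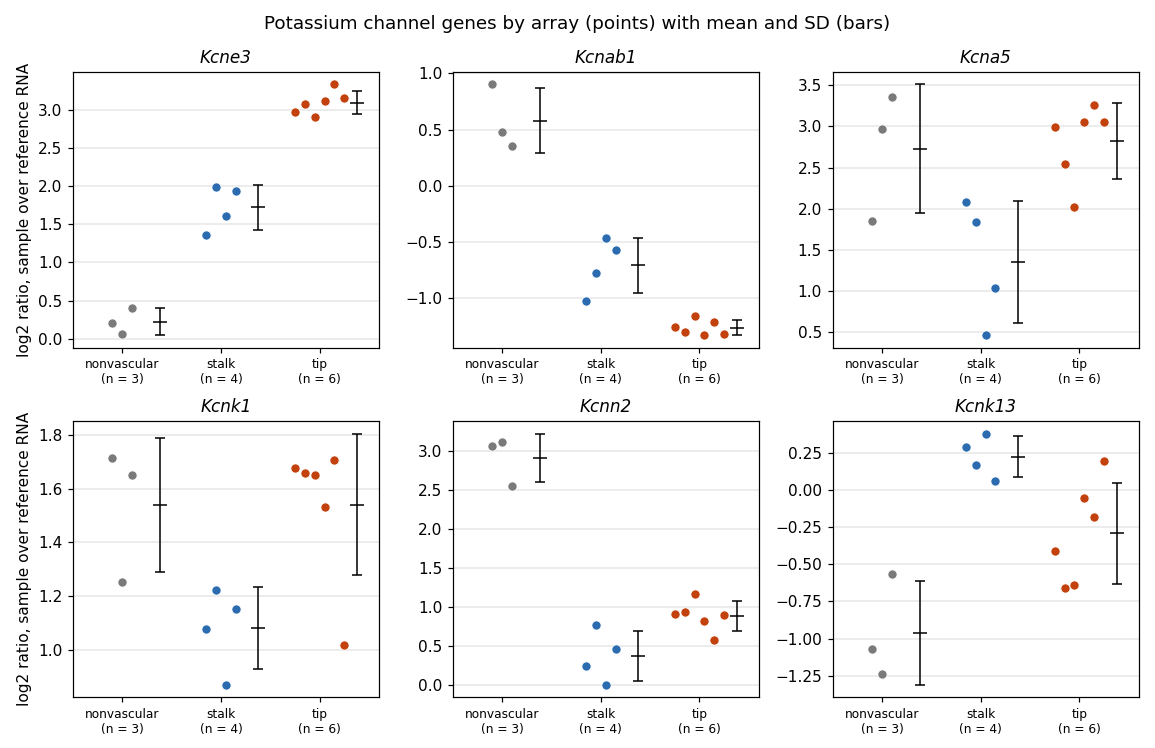
Log2 ratio of sample over reference RNA (vertical axis) on each array for 6 potassium channel genes, by group; points are arrays, and the bar beside each group is its mean with the SD, and each panel has its own scale. Kcne3 separates into 3 levels, with tip arrays at 2.91 to 3.33, while tip and stalk arrays overlap for Kcna5, Kcnk1, Kcnn2 and Kcnk13.

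Kcnab1 ran the other way. Its level was 0.90, 0.48 and 0.36 on the nonvascular arrays, −1.02, −0.77, −0.46 and −0.57 on the stalk arrays, and −1.25, −1.30, −1.15, −1.32, −1.21 and −1.32 on the tip arrays. Every tip array lay below every stalk array, and every stalk array below every nonvascular array. Tip was lower than stalk by 0.55 (log2 difference −0.55 ± 0.11, 1.47-fold, adjusted p = 0.0249), and the differences from nonvascular retina were −1.84 ± 0.13 for tip and −1.29 ± 0.14 for stalk (adjusted p = 2.67e-07 and 1.04e-05). The tip against stalk call was lost without stalk array 3 (−0.47, adjusted p = 0.0813), without stalk array 4 (−0.51, 0.0613) and without tip array 2 (−0.55, 0.0567). It was also lost with array brightness in the model (adjusted p = 0.120). Another probe of Kcnab1 was well above background on 6 of 13 arrays and differed by −0.07 ± 0.09 between tip and stalk. Against nonvascular retina that probe differed by 0.01 ± 0.10 in tip and 0.08 ± 0.11 in stalk, and it was called in no comparison. With all probes of a gene averaged the tip minus stalk difference was −0.31.

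The start sites of these 2 genes are shown because they are the members called between tip and stalk. RefSeq (GRCm38.p6) lists 58 of the 77 members in its promoter table, with 83 start sites in all, each as 300 bases. The files do not say from which start site the measured RNA came. Capitals mark matches, on either strand, to any of 4 motifs, which could overlap. The motif ACGTG is the core of the hypoxia response element. Transcription factors of the ETS family bind around CCGGAA, and GGGCGG is known as the GC box. The letters TATAAA spell the TATA box. Kcne3 lies on the plus strand of chromosome 7, and its windows are chr7:100176420-100176719 and chr7:100178433-100178732.
Kcne3 start site 1: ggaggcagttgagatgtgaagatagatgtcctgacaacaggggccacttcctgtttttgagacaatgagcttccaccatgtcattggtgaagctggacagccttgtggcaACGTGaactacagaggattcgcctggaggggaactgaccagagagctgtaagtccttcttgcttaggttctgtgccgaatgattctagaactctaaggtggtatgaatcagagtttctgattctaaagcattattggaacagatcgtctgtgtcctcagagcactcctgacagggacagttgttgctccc
Kcne3 start site 2: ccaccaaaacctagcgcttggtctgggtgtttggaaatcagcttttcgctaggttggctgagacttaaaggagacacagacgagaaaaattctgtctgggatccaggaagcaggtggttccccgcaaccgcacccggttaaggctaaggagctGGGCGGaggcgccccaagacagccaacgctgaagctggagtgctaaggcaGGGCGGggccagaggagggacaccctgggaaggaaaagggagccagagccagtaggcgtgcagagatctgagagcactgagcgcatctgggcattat
The first Kcne3 window held 1 match to ACGTG, at base −140 from the start site, and the other held 2 matches to GGGCGG, at −97 and −47. Kcnab1 has 3 listed start sites on the plus strand of chromosome 3, in windows chr3:64948962-64949261, chr3:65108764-65109063 and chr3:65187853-65188152.
Kcnab1 start site 1: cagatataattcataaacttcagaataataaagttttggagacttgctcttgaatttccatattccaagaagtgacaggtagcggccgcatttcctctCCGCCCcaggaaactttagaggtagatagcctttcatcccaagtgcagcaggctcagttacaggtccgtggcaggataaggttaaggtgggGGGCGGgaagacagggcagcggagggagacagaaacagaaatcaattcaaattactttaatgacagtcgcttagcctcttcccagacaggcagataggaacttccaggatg
Kcnab1 start site 2: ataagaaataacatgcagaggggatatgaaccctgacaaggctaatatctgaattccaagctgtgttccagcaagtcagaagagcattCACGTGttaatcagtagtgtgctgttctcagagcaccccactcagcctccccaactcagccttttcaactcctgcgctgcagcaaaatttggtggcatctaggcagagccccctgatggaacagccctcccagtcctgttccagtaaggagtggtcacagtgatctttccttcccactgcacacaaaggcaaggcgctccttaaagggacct
Kcnab1 start site 3: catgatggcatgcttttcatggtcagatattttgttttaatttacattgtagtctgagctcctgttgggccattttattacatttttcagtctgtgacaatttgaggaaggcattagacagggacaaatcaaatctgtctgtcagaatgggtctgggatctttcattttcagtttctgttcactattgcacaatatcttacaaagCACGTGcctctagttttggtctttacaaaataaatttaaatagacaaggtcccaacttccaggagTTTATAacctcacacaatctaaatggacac
The first window of Kcnab1 held 2 matches to GGGCGG. The other 2 windows each held the palindrome CACGTG, which counts as a match to ACGTG on both strands, and the last also held TATAAA on the opposite strand, 21 bases into the transcript. Across all 32851 windows of this length, 19.6% held ACGTG, 14.9% CCGGAA, 35.7% GGGCGG and 13.6% TATAAA. Among the 83 windows of the members, the counts were 14 (16.9%), 7 (8.43%), 41 (49.4%) and 4 (4.82%). Such a match describes the letters and says nothing of binding.

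Several pore genes lay near the threshold between tip and stalk. Kcna5, the Kv1.5 channel known from heart and vascular smooth muscle, was at 2.09, 1.83, 0.46 and 1.04 on the stalk arrays and at 3.00, 2.54, 2.02, 3.06, 3.26 and 3.06 on the tip arrays. The groups overlapped by 1 array on each side, and stalk arrays 3 and 4 were the low ones. The difference was 1.47 ± 0.36 (2.76-fold) with an adjusted p of 0.0532, which ran from 0.0370 to 0.190 over the alternatives. It passed when nonvascular arrays were left out of the shared error (0.0463), without nonvascular array 1 (0.0370) or 3 (0.0455), and without tip array 3 (1.63, 0.0452). Nonvascular retina spread from 1.85 on array 1 to 2.97 and 3.36 on arrays 2 and 3.

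Kcnk1, the weak inward rectifying leak channel TWIK-1, was at 1.08, 1.22, 0.87 and 1.15 on stalk arrays, at 1.53 to 1.71 on 5 tip arrays and at 1.02 on tip array 6. Its difference was 0.46 ± 0.14 (adjusted p = 0.101), and 0.57 (adjusted p = 0.00895) without tip array 6. Kcnn2, a small-conductance calcium-activated channel, had a difference of 0.51 ± 0.15 (adjusted p = 0.101), which was 0.65 (0.0495) without stalk array 2. The leak channel gene Kcnk13 had a difference of −0.52 ± 0.17 (adjusted p = 0.142), which was −0.61 (0.0468) without tip array 6. Kcnk1 was chosen after its values were seen.

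Against nonvascular retina, 5 members were higher and 17 lower in tip, and 5 were higher and 17 lower in stalk. That is 29.3% of 75 in each comparison, beside 27.9% of all features for tip (11.1% higher, 16.8% lower) and 29.8% for stalk (11.2% higher, 18.6% lower). Higher features were 39.9% of those called for tip, and 28.0% with median centring. The median member difference was −0.02 for tip and −0.05 for stalk, beside −0.01 and −0.00306 over all features. Tip and nonvascular arrays did not overlap for 20 members, with 27.7% of all features apart in the same way, and stalk and nonvascular arrays for 27, with 37.3%. The 11 members whose median net red signal stayed under 50 in every group, where the offset of 50 pulls log ratios toward 0, had no call in any comparison at this setting. Kcnk10, a leak channel among the 11 and chosen after its values were seen, differed by −0.22 ± 0.08 in tip (adjusted p = 0.0599) and −0.24 ± 0.09 in stalk (0.0561). It was called lower in 8 and 6 of 25 alternatives, with differences of −2.14 and −2.34 in the deposited ratios (0.0171 and 0.0142).

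**Figure D2:**
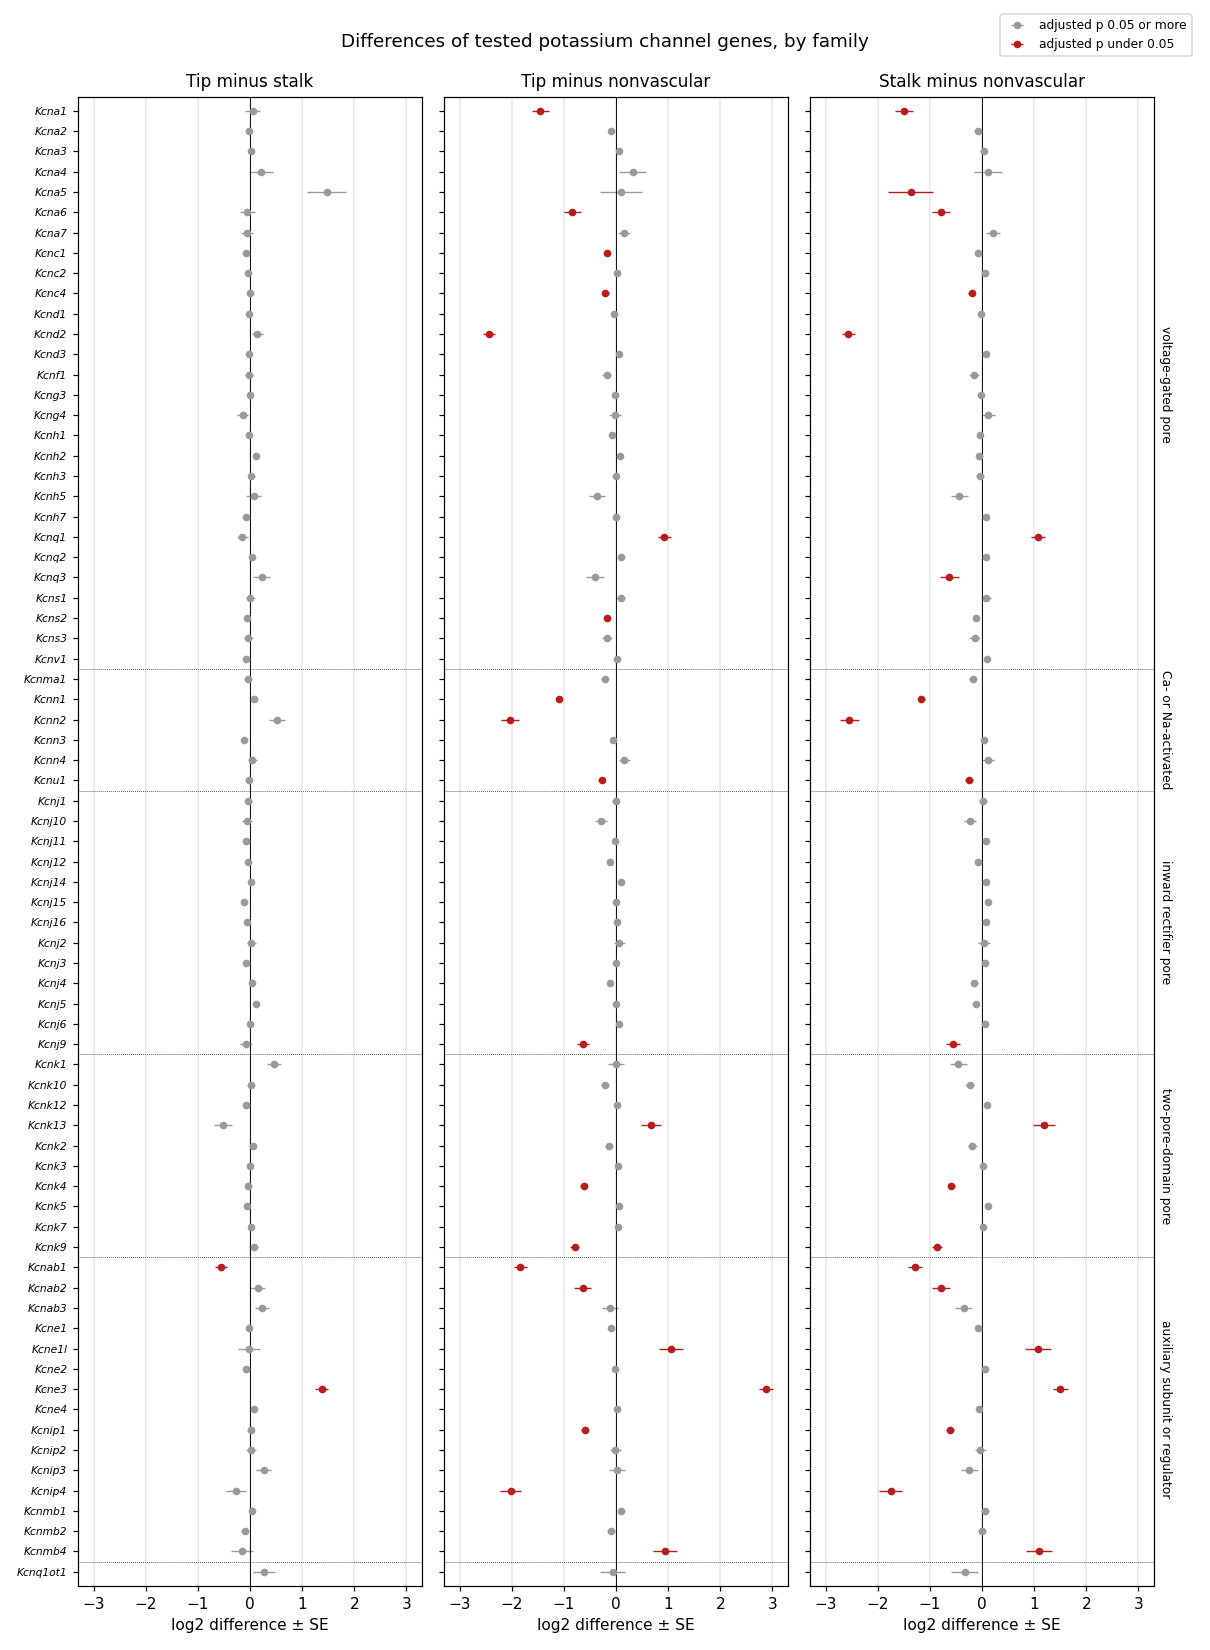
Log2 difference with its standard error (horizontal axis) for 73 of the 75 tested potassium channel genes, by family from top to bottom, in tip minus stalk, tip minus nonvascular and stalk minus nonvascular; red points have an adjusted p under 0.05. The left panel has 2 red points, Kcne3 and Kcnab1, and the other panels have 21 each.

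The members higher in vessel samples than in nonvascular retina were Kcnq1, Kcnk13 and the auxiliary subunits Kcne3, Kcne1l and Kcnmb4. Kcnq1, the Kv7.1 pore with which Kcne3 assembles, was at −0.07, −0.02 and −0.02 on nonvascular arrays, at 1.06, 0.78, 1.25 and 1.06 on stalk arrays and between 0.56 and 1.20 on tip arrays, with a tip median of 0.87. Nonvascular arrays lay below all others, while tip and stalk overlapped. Tip exceeded nonvascular retina by 0.93 ± 0.12 (adjusted p = 8.07e-05) and stalk by 1.07 ± 0.13 (4.35e-05), and tip minus stalk was −0.14 ± 0.11 (0.549). The noncoding Kcnq1ot1, an RNA read from the opposite strand of the Kcnq1 locus, was called in none of the comparisons and spread from −1.25 to −0.20 on nonvascular arrays.

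Kcne1l, a KCNE-type subunit now also called Kcne5, was at 2.54, 2.10 and 3.44 on nonvascular arrays, at 3.59, 3.43, 4.03 and 4.04 on stalk arrays and at 3.60 to 3.90 on tip arrays. Nonvascular array 3 reached the stalk range. The differences were 1.06 ± 0.23 for tip (adjusted p = 0.00341) and 1.08 ± 0.25 for stalk (0.00477). The tip call was lost in the deposited ratios (0.71, adjusted p = 0.0801), and the stalk call with array brightness in the model (0.94, 0.0604).

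Kcnmb4, the neuronal beta subunit of large-conductance calcium-activated channels, was at 3.43, 3.73 and 4.83 on nonvascular arrays, at 5.03, 5.03, 5.25 and 5.04 on stalk arrays and at 4.89, 5.01, 4.85, 4.85 and 5.08 on 5 tip arrays. Its spot on tip array 6 carried an outlier mark and was left out. Again nonvascular array 3, the one with high astrocyte and Mueller glia markers, lay nearest to the vessel samples. Tip exceeded nonvascular retina by 0.94 ± 0.24 (adjusted p = 0.0100) and stalk by 1.09 ± 0.25 (0.00496). Without nonvascular array 1 the tip difference was 0.65 (adjusted p = 0.0551), and without nonvascular array 2 it was 0.80 (0.0570). The part of astrocyte or Mueller glia RNA in the levels of Kcne1l and Kcnmb4 was not tested.

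Kcnk13, a leak channel known from microglia, was at −1.07, −1.24 and −0.57 on nonvascular arrays, at 0.29, 0.17, 0.38 and 0.06 on stalk arrays and between −0.66 and 0.19 on tip arrays. Stalk arrays lay above all nonvascular arrays, and tip arrays overlapped both. The difference was 1.19 ± 0.21 for stalk (adjusted p = 0.000640) and 0.67 ± 0.19 for tip (0.0183). The tip call was lost without nonvascular array 1 (0.61, adjusted p = 0.0791) and without nonvascular array 2 (0.53, 0.109). The mean of 6 microglia markers ran the other way, at 1.38 to 1.71 in nonvascular retina, 0.73 to 0.97 in stalk and 0.49 to 0.99 in tip. The part of microglia RNA in the level of Kcnk13 was not tested.

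**Figure D3:**
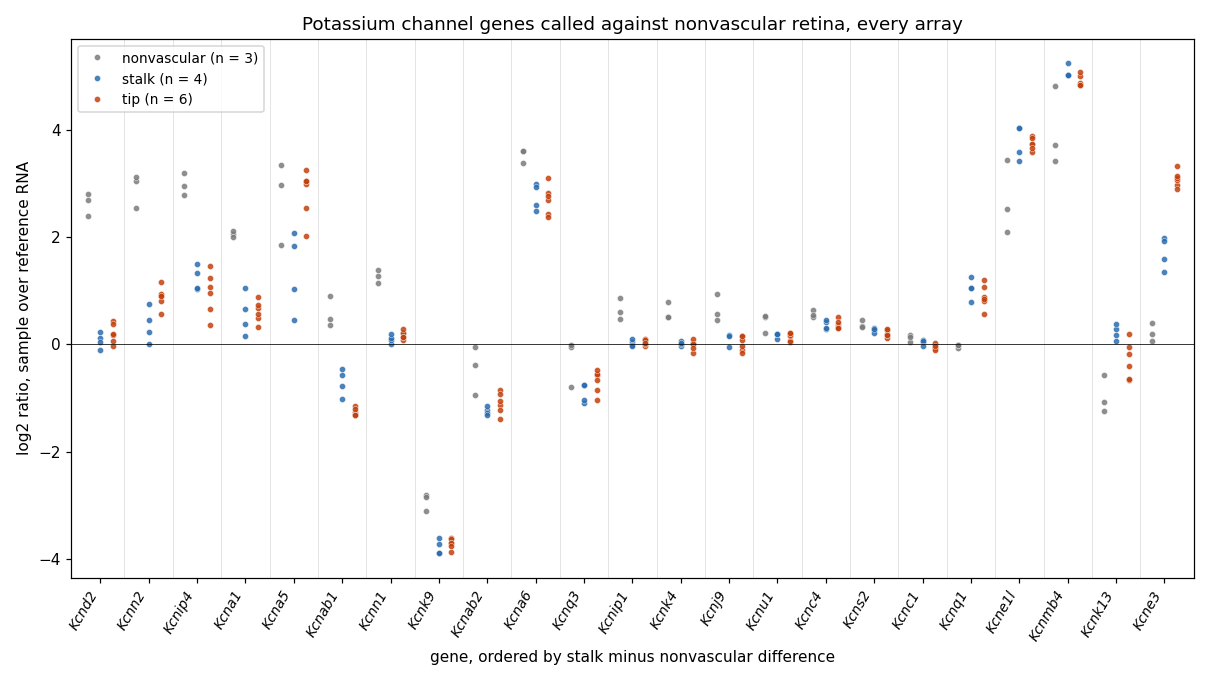
Log2 ratio of sample over reference RNA (vertical axis) on every array for 23 of the 24 potassium channel genes called against nonvascular retina in tip, in stalk or in both, ordered along the horizontal axis by the stalk minus nonvascular difference; colours give the group, and 1 tip array of Kcnmb4 and 1 stalk array of Kcnj9 are missing. Kcnd2 and Kcnn2 stand at the low end, with nonvascular arrays at 2.41 to 3.12, and Kcne3 at the high end.

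Voltage-gated pore genes were the largest family, with 30 of 32 tested. Of these 1 was higher and 7 lower in tip than in nonvascular retina, and 1 was higher and 7 lower in stalk. That is 26.7% of 30 in each comparison, beside 27.9% of all features for tip and 29.8% for stalk. No gene of the family was called between tip and stalk. Kcnd2, the Kv4.2 pore of the A-type current in neuronal dendrites, showed the largest difference of the family. It was at 2.70, 2.80 and 2.41 on nonvascular arrays, −0.11 to 0.22 on stalk arrays and −0.02 to 0.44 on tip arrays. The vessel arrays lay near the reference and far below every nonvascular array. The differences were −2.43 ± 0.11 for tip (5.40-fold, adjusted p = 1.53e-08) and −2.57 ± 0.12 for stalk (5.94-fold, 1.75e-08).

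Of the 7 tested Kv1 pores, Kcna1 and Kcna6 were lower in tip and in stalk, and Kcna5 in stalk. Kcna2, Kcna3, Kcna4 and Kcna7 were not called, at −0.09, 0.06, 0.32 and 0.15 in tip and −0.08, 0.03, 0.11 and 0.21 in stalk. Kcna1 (Kv1.1, an axonal channel) was at 2.01 to 2.12 on nonvascular arrays, 0.16 to 1.05 on stalk arrays and 0.33 to 0.88 on tip arrays, with differences of −1.45 ± 0.16 for tip and −1.50 ± 0.18 for stalk (adjusted p = 1.83e-05 and 2.50e-05). Kcna6 (Kv1.6) was at 3.38 to 3.62, 2.49 to 3.00 and 2.38 to 3.11 in the same order. Both genes had no nonvascular array within the stalk or tip range. For Kcna6 the differences were −0.84 ± 0.16 in tip (adjusted p = 0.00126) and −0.78 ± 0.17 in stalk (0.00330), and the stalk call was lost in the deposited ratios (−0.52, 0.0913).

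The other calls among voltage-gated pores were small or turned on single arrays. Kcna5 was lower in stalk than in nonvascular retina by 1.37 (log2 difference −1.37 ± 0.43, adjusted p = 0.0289), a call lost without nonvascular array 2 (−1.25, 0.102) or 3 (−1.06, 0.125) and without stalk array 3 (−1.07, 0.0763) or 4 (−1.27, 0.0679). In tip Kcna5 differed from nonvascular retina by 0.10 ± 0.40 (0.900). Kcnq3, a pore of the M current, differed by −0.63 ± 0.19 in stalk (0.0212), and this call was lost without nonvascular array 2 (−0.50, 0.105) or 3 (−0.49, 0.0977) and without stalk array 1 (−0.57, 0.0567) or 3 (−0.59, 0.0519). In tip it differed by −0.41 ± 0.17 (0.105), which was −0.66 (0.00453) without nonvascular array 1.

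Kcnc4, a Kv3 pore of fast-spiking neurons, differed by −0.20 ± 0.06 in tip (adjusted p = 0.0260) and −0.20 ± 0.07 in stalk (0.0373). The tip call was lost without nonvascular array 2 (−0.17, 0.130), nonvascular array 3 (−0.21, 0.0579) or tip array 4 (−0.19, 0.0514). The stalk call was lost without nonvascular array 2 (−0.17, 0.150) or 3 (−0.21, 0.0709) and without stalk array 1 (−0.17, 0.0982) or 2 (−0.18, 0.0902). Kcnc1, a related Kv3 pore, differed by −0.16 ± 0.05 in tip (0.0164), lost without nonvascular array 1 (−0.14, 0.0891) or 3 (−0.15, 0.0605). Kcns2, a silent Kv9 subunit, differed by −0.17 ± 0.05 in tip (0.0231), lost without nonvascular array 1 (−0.13, 0.129). The Kcns2 call was also lost with its probes averaged, and its dimmer probe differed by −0.03 ± 0.06 in tip. With the red channel alone Kcnc4 and Kcns2 had the opposite sign in tip, at 0.06 and 0.12.

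The family of calcium- or sodium-activated pores numbered 6, all tested, of which 3 were lower in tip and 3 in stalk than in nonvascular retina. These calls are 50% of 6 in each comparison, beside 27.9% of all features for tip and 29.8% for stalk. Kcnn2 and Kcnn1 encode small-conductance channels that follow action potentials with a slow hyperpolarisation. Kcnn2 was at 3.06, 3.12 and 2.55 on nonvascular arrays, 0.24, 0.76, 0.00 and 0.46 on stalk arrays and 0.57 to 1.16 on tip arrays. The gap between nonvascular and vessel arrays was wider than the spread within any group. The differences were −2.03 ± 0.17 for tip (adjusted p = 1.41e-06) and −2.54 ± 0.18 for stalk (3.85e-07), and Kcnn2 was well above background on 3 of 4 stalk arrays.

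Kcnn1 was at 1.14 to 1.39 on nonvascular arrays, 0.02 to 0.19 on stalk arrays and 0.09 to 0.28 on tip arrays, with differences of −1.09 ± 0.06 and −1.16 ± 0.07 (adjusted p = 7.25e-08 and 7.17e-08). Kcnu1, a pore known from sperm, is counted here by gene family and not by what activates it. It differed by −0.28 ± 0.07 in tip (0.0104) and −0.25 ± 0.08 in stalk (0.0275). Both Kcnu1 calls were lost without nonvascular array 1 (−0.23, 0.0655 and −0.20, 0.124) or 2 (−0.22, 0.0719 and −0.19, 0.134), and the stalk call without stalk array 2 (−0.22, 0.0698).

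The calcium-activated channels best known from vessels did not pass the test. Kcnn3 and Kcnn4, which hyperpolarise endothelium, had group means of −0.01 ± 0.03 and −1.50 ± 0.04 in nonvascular retina (SD, n = 3), 0.04 ± 0.05 and −1.39 ± 0.12 in stalk (n = 4) and −0.07 ± 0.06 and −1.34 ± 0.20 in tip (n = 6). Tip minus stalk was −0.11 ± 0.04 for Kcnn3 (adjusted p = 0.175) and 0.05 ± 0.10 for Kcnn4 (0.840). Kcnma1, the large-conductance pore, differed from nonvascular retina by −0.21 ± 0.08 in tip (0.0528) and −0.17 ± 0.08 in stalk (0.151). The Kcnma1 difference in tip passed without nonvascular array 3 (−0.27, 0.0390), stalk array 4 (−0.21, 0.0490), tip array 1 (−0.24, 0.0288) or tip array 3 (−0.24, 0.0415). Kcnmb1, its smooth muscle beta subunit, was at 0.18 ± 0.14, 0.24 ± 0.05 and 0.28 ± 0.09 in nonvascular, stalk and tip samples.

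Inward rectifier pores numbered 13 tested, with 1 lower in tip and 1 in stalk. This is 7.69% of 13 in each comparison, beside 27.9% of all features for tip and 29.8% for stalk. The called gene was Kcnj9, a subunit of G-protein-gated channels, at 0.45 to 0.94 on nonvascular arrays, −0.04 to 0.18 on 3 stalk arrays and −0.15 to 0.17 on tip arrays. It differed by −0.63 ± 0.11 in tip (adjusted p = 0.000892) and −0.55 ± 0.13 in stalk (0.00558), with its spot on stalk array 3 left out as an outlier. Kcnj10 (Kir4.1), the main potassium-buffering channel of retinal glia, was at 0.31, 0.18 and 0.78 on nonvascular arrays, 0.11 to 0.31 on stalk arrays and −0.04 to 0.25 on tip arrays. Nonvascular array 3, the highest of its group in astrocyte and Mueller glia markers, was also the highest for Kcnj10, and the differences were −0.29 ± 0.11 in tip (0.0659) and −0.23 ± 0.12 in stalk (0.178). Without nonvascular array 2 both passed (−0.41, 0.0186 and −0.35, 0.0493). Kcnj16, the partner of Kcnj10, and Kcnj2, the strong rectifier of endothelium, were called in no comparison: their differences were −0.05 and 0.03 between tip and stalk, 0.02 and 0.06 in tip and 0.07 and 0.03 in stalk against nonvascular retina.

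Tandem-pore leak channels numbered 10, with Kcnk13 higher and 2 lower in tip and in stalk. That is 30% of 10 in each comparison, beside 27.9% of all features for tip and 29.8% for stalk. The lower ones were Kcnk4 (TRAAK), a mechanically gated channel of neurons, and Kcnk9 (TASK-3), an acid-sensitive one. Kcnk4 was at 0.51, 0.79 and 0.51 on nonvascular arrays, −0.02 to 0.06 on stalk arrays and −0.15 to 0.09 on tip arrays. Kcnk9 was below the reference on every array, at −3.11 to −2.81, −3.90 to −3.62 and −3.88 to −3.61. For both genes the nonvascular arrays stood apart from all vessel arrays. The differences in tip and stalk were −0.62 ± 0.07 and −0.59 ± 0.07 for Kcnk4 (adjusted p = 1.74e-05 and 4.77e-05), and −0.80 ± 0.09 and −0.86 ± 0.09 for Kcnk9 (1.39e-05 and 1.26e-05). Kcnk2 (TREK-1) was well above background on 0 of 4 stalk arrays, 5 of 6 tip arrays and 3 of 3 nonvascular arrays. Its log2 ratios differed by −0.13 ± 0.07 in tip (0.222) and −0.18 ± 0.08 in stalk (0.110). In the normalised red channel, which is open to dye bias, nonvascular retina was at least 1.24-fold above stalk, taking the higher of the stalk signal and the array's lowest signal well above background. The fold of the log2 ratios, another scale, was 1.14. In the deposited ratios Kcnk2 was called lower in both, at −0.87 (0.0200) and −1.23 (0.00361), and with the red channel alone at −0.40 (0.00484) and −0.47 (0.00257).

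Auxiliary subunits numbered 15, with 3 higher and 4 lower in tip and 3 higher and 4 lower in stalk than in nonvascular retina. These calls are 46.7% of 15 in each comparison, beside 27.9% of all features for tip and 29.8% for stalk. The lower ones fall into Kv4 and Kv1 partners. Kcnip4 and Kcnip1 are calcium-binding proteins that carry Kv4 pores such as Kcnd2 to the membrane. Kcnip4 was at 2.96, 3.21 and 2.78 on nonvascular arrays, 1.03 to 1.51 on stalk arrays and 0.37 to 1.47 on tip arrays, with differences of −2.02 ± 0.21 and −1.75 ± 0.22 (adjusted p = 8.35e-06 and 5.24e-05). Kcnip1 was at 0.47 to 0.86, −0.03 to 0.11 and −0.03 to 0.10, with differences of −0.60 ± 0.07 and −0.62 ± 0.08 (3.63e-05 and 5.35e-05). Neither had a nonvascular array within the vessel range.

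Beside Kcnab1, the Kv1 beta subunit gene Kcnab2 was lower in vessel samples. It was at −0.05, −0.39 and −0.95 on nonvascular arrays, −1.33 to −1.15 on stalk arrays and −1.40 to −0.86 on tip arrays, so nonvascular array 3 lay inside the tip range. The differences were −0.64 ± 0.16 for tip (adjusted p = 0.00978) and −0.78 ± 0.18 for stalk (0.00403). Without nonvascular array 1 the tip difference was −0.43 (0.0677). Beside all of these lower genes, ganglion cell markers were lower in vessel samples, 8 of 9 in tip and 7 of 9 in stalk. Of 11 amacrine, horizontal and bipolar markers, 4 were lower and 1 was higher in each. Photoreceptor markers were lower for 4 of 9 in tip and 3 of 9 in stalk. The part of neuronal RNA in the lower channel genes was not tested.

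Of the 77 members, 18 had several probes and 17 had several that passed the filter. No member had 1 probe called higher and another called lower in the same comparison. For Kcnc2, a Kv3 pore of interneurons, the choice of probe decided the result. Its brightest probe differed by 0.02 ± 0.05 in tip and 0.06 ± 0.05 in stalk against nonvascular retina. The other probes differed by −1.29 ± 0.15 and −0.92 ± 0.17 in tip (limma, adjusted over probes, 1.93e-05 and 0.00130) and by −1.61 ± 0.16 and −1.04 ± 0.19 in stalk (5.11e-06 and 0.000888). Averaging the 3 probes gave −0.73 for tip and −0.86 for stalk, both called.

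Kcnab1, Kcnip4 and Kcnn2 were each called lower than nonvascular retina through 1 probe, while a dimmer probe differed by 0.09 or less in size in both comparisons. Kcns2, called in tip alone, was called through 1 probe too. The dimmer probe of Kcnd2 gave −0.96 ± 0.10 in tip and −0.80 ± 0.10 in stalk, both called. A dimmer probe of Kcnk5 was higher in tip than in nonvascular retina by 0.42 ± 0.10 (adjusted p = 0.00629), while the probe that stood for the gene differed by 0.06 ± 0.05. The dimmer probe of Kcnv1, a silent subunit, differed by −0.19 ± 0.06 in tip (adjusted p = 0.0368) and −0.25 ± 0.07 in stalk (0.0136), while the probe that stood for it was not called. That dimmer probe was near the floor, well above background on 2 of 3 nonvascular, 0 of 4 stalk and 1 of 6 tip arrays. The Kcnk5 and Kcnv1 probes were chosen after their values were seen.

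**Figure D4:**
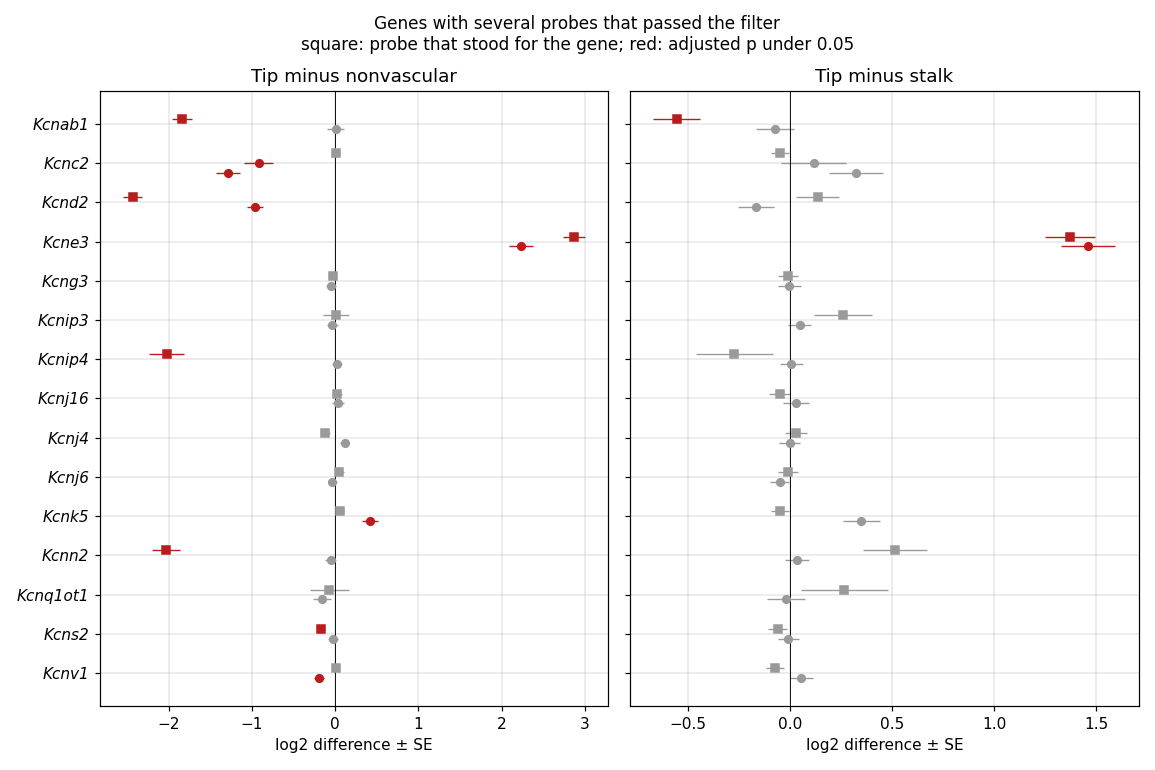
Log2 difference with its standard error (horizontal axis) for each probe of 15 of the 17 potassium channel genes with several probes that passed the filter, in tip minus nonvascular and tip minus stalk; the square is the probe that stood for the gene and red marks an adjusted p under 0.05. The square of Kcnc2 sits at 0.02 while its other probes sit at −1.29 and −0.92, and both probes of Kcne3 lie far to the right in both panels.

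Channel partners without a Kcn symbol were taken as a list of 21 genes, of which 17 were tested. None was called between tip and stalk, where 0 of the 17 had an unadjusted p under 0.05, beside 18% of all features. Against nonvascular retina 2 were higher and 7 lower in tip, and 1 was higher and 7 lower in stalk. These calls are 52.9% of 17 for tip and 47.1% for stalk, beside 27.9% and 29.8% of all features. The median difference of the list was 0.02 in tip and −0.06 in stalk. Dpp6 and Dpp10, transmembrane partners of Kv4 pores, differed by −1.96 ± 0.10 and −2.28 ± 0.11 in tip (adjusted p = 2.02e-08 and 1.43e-08) and by −2.00 ± 0.10 and −2.37 ± 0.11 in stalk (2.78e-08 and 1.83e-08). Among channels of the hyperpolarisation-activated current, Hcn3 differed by −1.72 ± 0.12 and −1.79 ± 0.13 and Hcn2 by 0.02 ± 0.08 and 0.03 ± 0.08. Hcn3 was called in both comparisons and Hcn2 in neither.

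The sulphonylurea receptors, which regulate ATP-sensitive potassium channels, split. Abcc9, which also stands in the pericyte marker list, was higher by 2.50 ± 0.21 in tip and 2.73 ± 0.23 in stalk (adjusted p = 1.47e-06 and 1.28e-06). Abcc8, the neuronal and beta cell form, differed by −1.10 ± 0.29 and −1.33 ± 0.32 (0.0123 and 0.00579). Kcnj11, a pore that pairs with Abcc8, was at −0.01 to 0.13 in nonvascular retina, 0.07 to 0.19 in stalk and −0.02 to 0.12 in tip and was called in no comparison.

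Potassium pumps and cotransporters formed a list of 28 genes, of which 27 were tested. Between tip and stalk 2 were higher and 0 lower, which is 7.41% of 27 beside 2.78% of all features. There 10 of the 27 (37%) had an unadjusted p under 0.05, beside 18% of all features. Against nonvascular retina 5 were higher and 9 lower in tip and 5 higher and 9 lower in stalk. This is 51.9% of 27 in each comparison, beside 27.9% of all features for tip and 29.8% for stalk. Atp1b1, a beta subunit of the sodium-potassium pump, had means of 1.13 ± 0.07 in nonvascular retina (SD, n = 3), −0.74 ± 0.28 in stalk (n = 4) and 0.21 ± 0.24 in tip (n = 6). Tip exceeded stalk by 0.95 ± 0.14 (1.93-fold, adjusted p = 0.00305), and tip and stalk differed from nonvascular retina by −0.93 ± 0.15 and −1.87 ± 0.16, both called. With median centring in place of loess the tip over stalk difference was 1.02 with an adjusted p of 0.0560.

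Other transport genes with large differences from nonvascular retina were chosen after their values were seen. Slc12a5, the neuronal potassium-chloride cotransporter, differed by −2.89 ± 0.19 in tip and −3.21 ± 0.21 in stalk. Slc24a3, a potassium-dependent sodium-calcium exchanger, differed by −2.88 ± 0.20 and −3.36 ± 0.21. Fxyd7, a brain regulator of the pump, differed by −2.62 ± 0.13 and −2.61 ± 0.14, while its relative Fxyd5 was higher by 2.78 ± 0.10 and 2.76 ± 0.10. Slc12a4, the widely expressed cotransporter, was higher by 2.55 ± 0.32 and 1.66 ± 0.34. All of these differences were called, with adjusted p between 1.60e-09 and 0.00221.

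**Figure D5:**
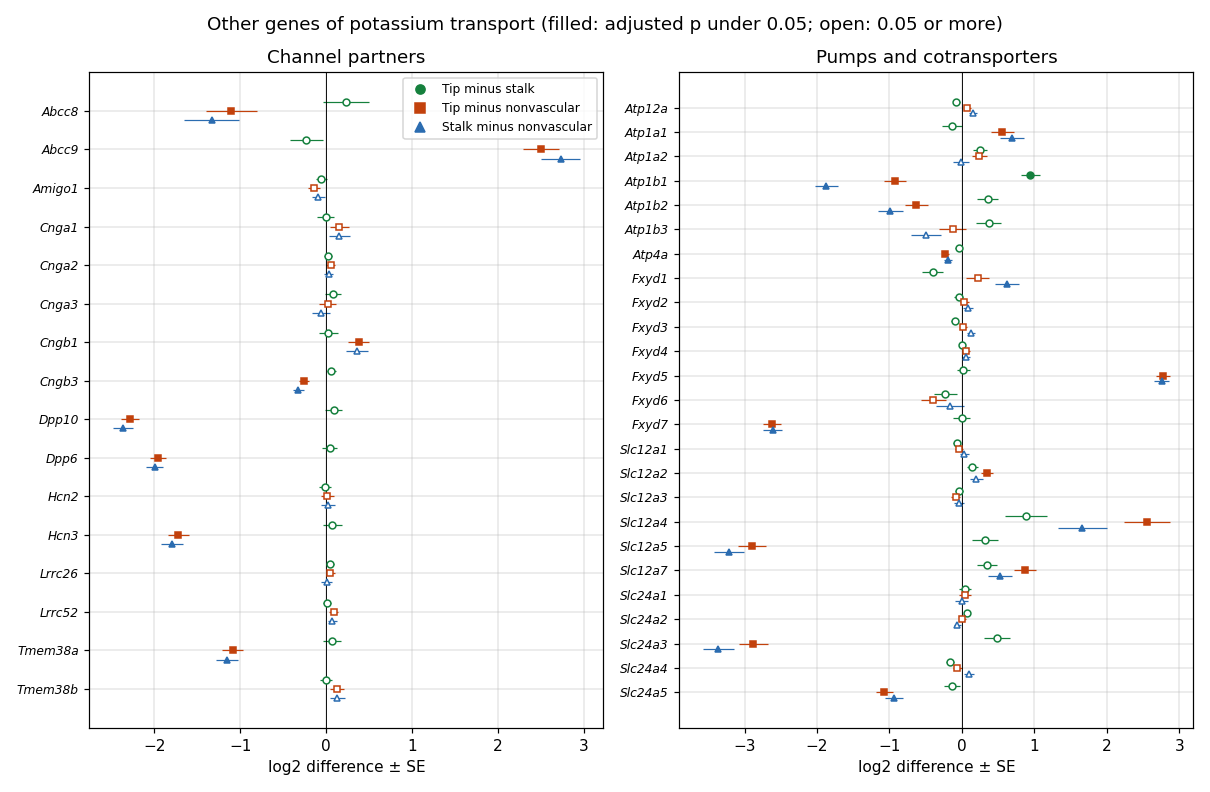
Log2 difference with its standard error (horizontal axis) for 16 channel partners and 25 potassium pumps and cotransporters in tip minus stalk, tip minus nonvascular and stalk minus nonvascular; filled symbols have an adjusted p under 0.05 and open ones 0.05 or more. Atp1b1 carries a filled tip minus stalk symbol, at 0.95.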

How the data were processed

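Agilent Feature Extraction 8.5.1.1 read the arrays, per the file headers and the submitters' processing notes. The deposited scanner files give an unnormalized mean intensity and a local background intensity per spot and channel, and, per the file headers, a log10 ratio of processed Cy5 over Cy3 signal. Linear ratios in a deposited table of values equal the antilog of that log10 ratio for at least 99.9% of the probes of each array (within 0.001) and served as an alternative. No genome build is given in the sources used here, and promoter coordinates come from RefSeq.

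From the intensity values, log2 ratios were computed in limma 3.58.1 (R 4.3.3) with normexp background correction (offset 50) and loess. Control spots had weight 0, outlier spots were set to missing, repeated spots were averaged, and the brightest probe stood for its gene. Features well above background in red on at least 3 of 13 arrays were tested: 32107, of which 16252 had a symbol. A single fit over all arrays held 3 group means, so the groups share an error, with limma's moderated test and Benjamini-Hochberg adjustment over all features of a comparison. Calls are at adjusted p under 0.05. Group errors are SDs over arrays and errors of differences are standard errors. The fit and its adjustment were tested on simulated log2 ratios, and the steps before the fit were not. The number of arrays limits the precision.

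The members, gene lists and tests were chosen with earlier results of these data known. Named genes are 12 fixed members, all called between tip and stalk, the 8 largest called differences per direction against nonvascular retina, and called members of the transport lists between tip and stalk; other members are given to account for each call, and other names are marked. Some genes that enter the counts are not reported here by name. Alternatives covered background correction, the scanner's own ratios, centring, the red channel alone, filters, probe choice, the groups in the fit, array brightness, a replicate block, scan day and each array left out in turn. They are not all distinct. Only tip array 5 was scanned on another day, so the scan day block matches the fit without that array. The deposited ratios nearly repeat the scanner's own. Leaving out a nonvascular array does not change the size of a tip minus stalk difference.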

Additional observations from a re-analysis of the deposited data

Results flagged for a closer look

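A single array lay far from the others of its group for 3 of the genes described. Kcnmb4 was at 5.25 on stalk array 3 and at 5.03 to 5.04 on the other stalk arrays. Kcnu1 was at 0.10 on stalk array 2 and at 0.19 to 0.20 on the others. Kcnk1 was at 1.02 on tip array 6 and at 1.53 to 1.71 on the other tip arrays. Dixon's criterion was applied to 65 groups of 4 to 6 values, of which chance gives about 1 in 20, or 3.25.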

How the results depend on the processing

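The count of members higher in tip than in stalk was 1, and 2 when only the groups compared were fitted. The count lower was 1, and 0 with array brightness in the model. With single arrays left out, the higher count ran from 1 to 2 and the lower from 0 to 2. In tip against nonvascular retina, the higher count of 5 became 3 with median centring and ran from 3 to 5 without single arrays, and the lower count of 17 from 14 to 19. In stalk against nonvascular retina, the higher count of 5 became 8 with the red channel alone and 3 with array brightness in the model. It was 5 without any single array, and the lower count ran from 14 to 18.

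Replicate numbers were not treated as pairing, since the labels do not say whether equal numbers mark a shared source. Same-numbered arrays correlated at −0.144 to 0.083 in their deviations, which cannot show whether they shared a source. With a replicate block 0 members were lower in tip than in stalk (Kcnab1 −0.55, adjusted p = 0.121). Against nonvascular retina the tip calls of Kcnk13 (0.48, 0.111), Kcnab2 (−0.63, 0.0924), Kcnc1 (−0.18, 0.0817), Kcnc4 (−0.20, 0.114) and Kcns2 (−0.20, 0.0593) and the stalk calls of Kcna5 (−1.39, 0.0941), Kcnc4 (−0.21, 0.0984) and Kcnu1 (−0.26, 0.0837) were lost too.

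The sign turned in 7 cases with a call in the setting used or under the alternative, and the cause was not tested. Of the 225 member differences, 121 had the other sign under at least 1 alternative, and 119 of these were not called in the setting used. With the red channel alone these were, in tip against nonvascular retina, Kcnc4 (0.059), Kcne2 (0.27), Kcns2 (0.12) and Atp4a (0.027), and in stalk Kcnmb2 (0.42). With probes averaged it was Kcnc2, at −0.73 in tip and −0.86 in stalk. Over all features, calls higher in tip than in stalk numbered 471, and 49 to 1019 over the alternatives; calls lower numbered 422, and 148 to 585. A slide block could not be fitted, because each slide held 1 array. Dim probes limit what can be seen: of the 11 members of low signal, Kcnk10 was called under some alternatives and the others under none.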
